A study of Mus musculus with 32 samples.

Results

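The genes described here make the machinery of DNA replication and of mitosis. They are 44 genes listed by symbol, 19 for replication (Mcm2 to Uhrf1) and 25 for mitosis (Mki67 to Ube2c). A gene counted as measured when the platform annotation gave a probe set its symbol and no other symbol, which left 42 members of 21506 genes, 18 for replication and 24 for mitosis. Ccne2 (a cyclin E) and Ccnb1 (a cyclin B) had no such probe set and were not analysed here. The list did not use the direction or size of any change, although results of these data were known when it was made.

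The study followed mouse 3T3-L1 adipocytes under oxidative stress with 32 microarrays in 16 groups of 2. 3T3-L1 is a clonal fibroblast line that fills with lipid once differentiated in culture. Drug groups received 1 µM auranofin, an inhibitor of thioredoxin reductase, 100 µM BCNU, an inhibitor of glutathione reductase, or both together (co-treatment), each for 2, 4, 8 or 24 h. Drug-free groups were labelled as untreated at 0 h and as control at 4, 8 and 24 h. The labels held no 2 h control, and the 0 h cells served for the 2 h groups, an assumption on which each 2 h value depends. Nothing in the labels says that the 2 arrays of a group are separate cultures, and the spread that the p-values rest on may be technical. A level is a log2 expression value, a change is a difference of log2 levels with its SE, and a gene was called higher or lower when limma gave an adjusted p under 0.05 and a change over 0.5 in size. By group mean, all 14 measured adipocyte markers lay above background in every group, and so did all 17 measured preadipocyte and fibroblast markers. The mean level of the adipocyte markers was between 11.4 and 11.7. An array reads bulk RNA, in which fewer cells of a type and less RNA per cell cannot be told apart.

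Cells prepare for replication in G1 phase, when ORC, CDC6 and CDT1 load the ring-shaped MCM helicase onto origins, and the helicase fires in S phase together with MCM10 and the GINS complex. PCNA is the sliding clamp of the polymerases, RRM1, RRM2 and TYMS supply nucleotides, UHRF1 maintains DNA methylation behind the fork, cyclin E drives entry into S phase and CHEK1 is the kinase that answers stalled forks. Mitotic genes act later, as the cyclin-dependent kinase CDK1 with cyclins A and B, as kinases and motors of the spindle, as kinetochore proteins that hold chromosomes to it, and as CDC20 and UBE2C, which drive destruction of cyclins at the end of mitosis. In cycling cells replication genes are switched on mainly by E2F factors, and mitotic genes mainly through CCAAT boxes and CHR elements, bound by NF-Y and by the MuvB complex with B-MYB and FOXM1. Mature adipocytes divide little. BCNU is also a nitrosourea that alkylates and cross-links DNA, apart from its action on glutathione reductase.

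The classes differed mainly in the CHR motif of their promoters, and the list had not used motifs. Of the 44 members, 36 had a RefSeq window from 250 bases before to 50 after the gene start (assembly GRCm38.p6), 15 for replication and 21 for mitosis, the latter with Ccnb1. Mcm4, Gins1, Gins2, Ccne2, Ccna2, Aurkb, Kif20a and Tpx2 had no window. Motifs were searched on both strands as CCAAT, as CHR (TTTGAA or TTCGAA) and as E2F (TTCGCGC or TTGGCGC). The reverse of an E2F motif can share letters with a CCAAT box, and TTCGAA is its own reverse.

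The 200 bases before the start are printed 5′ to 3′ on the coding strand for 3 genes of each class whose levels are described further on, with motifs of either strand in capitals. The stretch of Mcm5 lies at chr8:75109309-75109508 on the plus strand and Mcm6 at chr1:128359706-128359905 on the minus strand. Mcm2 lies at chr6:88898781-88898980 and Mki67 at chr7:135716380-135716579, both on the minus strand. Kif11 lies at chr19:37376182-37376381 on the plus strand and Cdc20 at chr4:118437344-118437543 on the minus strand. The Mcm5 and Mcm6 stretches hold E2F motifs and CCAAT boxes, that of Mcm2 holds a CCAAT box and a CHR, and those of the 3 mitotic genes each hold a CHR after a CCAAT box.
Mcm5: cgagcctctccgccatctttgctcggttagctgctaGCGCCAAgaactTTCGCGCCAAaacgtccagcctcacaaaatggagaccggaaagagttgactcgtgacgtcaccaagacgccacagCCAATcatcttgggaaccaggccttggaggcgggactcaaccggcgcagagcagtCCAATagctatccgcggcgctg
Mcm6: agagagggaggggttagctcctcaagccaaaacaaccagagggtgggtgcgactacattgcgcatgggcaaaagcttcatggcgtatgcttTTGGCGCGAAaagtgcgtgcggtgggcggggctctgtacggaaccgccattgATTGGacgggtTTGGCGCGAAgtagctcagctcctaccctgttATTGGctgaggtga
Mcm2: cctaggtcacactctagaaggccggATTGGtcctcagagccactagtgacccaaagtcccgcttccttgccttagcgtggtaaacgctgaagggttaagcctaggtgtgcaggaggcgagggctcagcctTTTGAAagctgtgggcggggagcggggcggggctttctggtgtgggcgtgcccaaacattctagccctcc
Mki67: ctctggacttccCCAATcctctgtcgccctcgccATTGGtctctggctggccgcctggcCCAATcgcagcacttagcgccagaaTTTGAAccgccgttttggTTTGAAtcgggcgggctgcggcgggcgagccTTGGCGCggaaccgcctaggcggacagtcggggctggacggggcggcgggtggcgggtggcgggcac
Kif11: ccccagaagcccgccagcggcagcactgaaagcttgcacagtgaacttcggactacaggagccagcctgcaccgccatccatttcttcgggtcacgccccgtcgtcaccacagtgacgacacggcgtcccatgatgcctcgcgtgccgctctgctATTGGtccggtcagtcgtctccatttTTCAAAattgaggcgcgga
Cdc20: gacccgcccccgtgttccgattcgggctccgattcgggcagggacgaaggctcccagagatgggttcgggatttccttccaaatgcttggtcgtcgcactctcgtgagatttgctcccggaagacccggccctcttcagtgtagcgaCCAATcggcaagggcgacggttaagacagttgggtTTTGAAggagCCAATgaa

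A CHR was found in 17 of 21 mitotic windows (81%) and 2 of 15 replication windows (13.3%), against 19.4% of all 27025 windows. In Aurka, Bub1, Cenpa, Cenpf, Kif23, Plk1, Ttk and Ndc80 the only CHR lay after the gene start, by 2 to 32 bases. CCAAT boxes were common in both classes, in 18 mitotic windows (85.7%) and 10 replication windows (66.7%), against 37.9% of all. A CHR that began within 60 bases after a CCAAT box stood in 13 mitotic windows (61.9%), 0 replication windows and 2.17% of all windows. E2F motifs were in the windows of Mcm3, Mcm5, Mcm6, Mcm7 and Cdt1 (33.3% of replication windows) and of Mki67, Cdk1 and Ccnb1 (14.3% of mitotic windows), against 3.98% of all. A match describes letters and is not a measured binding site.

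**Figure D1:**
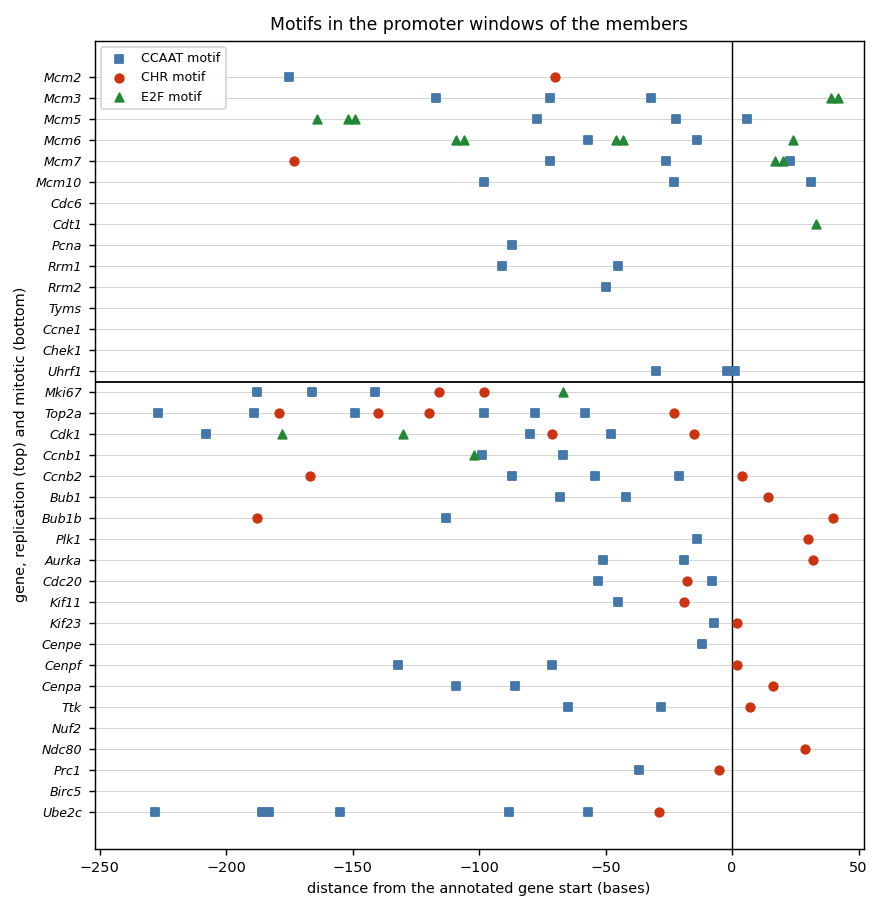
Position of CCAAT (squares), CHR (circles) and E2F (triangles) motifs in the promoter windows of 15 replication members (top) and 21 mitotic members (bottom), with distance from the annotated gene start in bases on the x axis. CHR circles fill the lower block, in 17 of 21 genes, with a median position of -16.5 bases, and appear for 2 genes of the upper block.

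Without drugs the median level of each class lay above the medians of the 32 arrays, which ran from 3.55 to 3.69. The mean level over the arrays without drugs ran from 3.47 for Cdc6 to 7.91 for Rrm1 among replication members (median 5.60), and from 1.91 for Birc5 to 6.60 for Cdk1 among mitotic members (median 5.22). Birc5, which encodes survivin, was the only member under 2.30, the floor set here from the lower quartiles of the arrays, and its signal was not clearly above background. Most mitotic levels were a little lower in the controls at 24 h. Against 0 h, 20 of 24 mitotic members had a negative change at 24 h, with a median of -0.19, and the same median was -0.09 for replication. Kif11 had a change of -0.53 ± 0.16 and Mki67 of -0.61 ± 0.23. limma called 0 of all genes between the 24 h controls and 0 h, and 955 of all genes, 8 mitotic members among them, had an unadjusted p under 0.05.

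**Figure D2:**
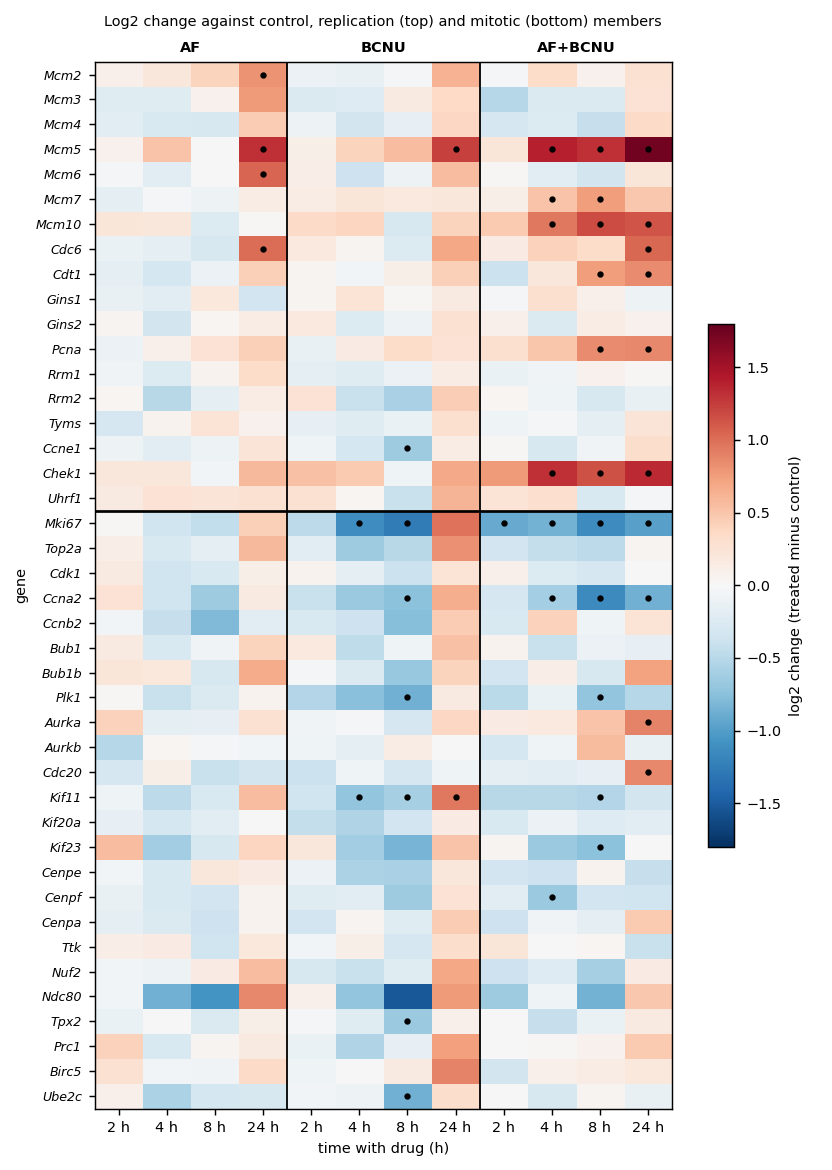
Log2 change of each of the 42 measured members (rows, replication above the line and mitosis below) against the control of the same time, for auranofin (AF), BCNU and co-treatment (AF+BCNU) at 2, 4, 8 and 24 h. Dots mark called members. The BCNU block of the mitotic members is mostly blue at 4 and 8 h and mostly red at 24 h.

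With BCNU alone most mitotic genes had negative changes at 4 and 8 h, though few passed the test and each of those calls was lost on leaving out 1 array or another. At 8 h limma called 6 of 24 mitotic members lower and 0 higher, against 1.38% and 0.879% of all genes. Their median change was -0.54 (all genes 0.002), 22 of 24 had a negative change and 14 had an unadjusted p under 0.05. Of the 18 replication members 1 was called lower and 0 higher, with a median of -0.09. In 20 of 24 mitotic members both BCNU arrays lay below both controls at 8 h, compared with 4 of 18 replication members and 21.7% of all genes.

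Mki67 encodes Ki-67, the surface coat of mitotic chromosomes and a marker of cycling cells. Its levels at 8 h were 6.74 and 6.31 in control arrays and 5.05 and 5.48 with BCNU, so the groups did not overlap. The change was -1.26 ± 0.23 (2.39-fold lower, adjusted p 0.00379). Ccna2, cyclin A, read 6.92 and 6.42 in controls and 5.73 and 6.13 with BCNU, a change of -0.74 ± 0.18 (adjusted p 0.0258). Plk1, a kinase of mitotic entry and spindle assembly, read 5.23 and 4.79 in controls and 4.12 and 4.17 with BCNU, and changed by -0.86 ± 0.21 (adjusted p 0.0262). In each of these genes both BCNU arrays were the lower ones.

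Ube2c, the ubiquitin-conjugating enzyme of the anaphase-promoting complex, stood at 5.31 and 5.17 in controls and 4.18 and 4.56 with BCNU (-0.87 ± 0.19, adjusted p 0.0143). Tpx2, a spindle assembly factor that activates Aurora A, changed by -0.67 ± 0.16 (adjusted p 0.0234), and Kif11, the motor that pushes spindle poles apart, by -0.60 ± 0.16 (adjusted p 0.0407). The called replication member was Ccne1, cyclin E1, at 6.82 and 6.92 in controls and 6.02 and 6.45 with BCNU (-0.64 ± 0.13, adjusted p 0.00634). Ndc80, a kinetochore protein, had the most negative change of any member at -1.53, but its BCNU arrays were far apart at 3.57 and 4.55 (controls 5.92 and 5.25) and it was not called (adjusted p 0.0623). Each of the 7 calls was lost on leaving out 1 array: all of them without BCNU 8 h replicate 1 (adjusted p 0.0615 to 0.288), all but Ccne1 without control 8 h replicate 1 (0.0799 to 0.318), Ccne1, Kif11, Tpx2 and Ube2c without control replicate 2 (0.0512 to 0.127), and Plk1 and Kif11 without BCNU replicate 2 (0.0929 and 0.271).

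Earlier times had fewer calls. At 2 h of BCNU limma called 0 members of either class (1 replication and 4 mitotic members at an unadjusted p under 0.05), beside 0.0325% of genes higher and 0.0139% lower. At 4 h 2 mitotic members were called lower and 0 higher, beside 0.4% and 0.391% of all genes, and 0 replication members were called (4 at an unadjusted p under 0.05). Mki67 read 6.39 and 6.60 in 4 h controls and 4.94 and 5.82 with BCNU (-1.12 ± 0.23, adjusted p 0.023), and Kif11 read 5.41 and 5.75 against 4.77 and 4.98 (-0.71 ± 0.16, adjusted p 0.0368). Mki67 was no longer called without either control array or BCNU replicate 1 (adjusted p 0.0705 to 0.327), nor Kif11 without either BCNU array or control replicate 2 (0.0787 to 0.394). The median mitotic change at 4 h was -0.38, and 14 of 24 mitotic members had both BCNU arrays below both controls, beside 20.7% of all genes.

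Preadipocyte and fibroblast markers moved beside the mitotic fall. At 8 h BCNU lowered 9 of 17 and raised 0 (median -0.51), beside 1.38% and 0.879% of all genes. The mean level of the 17 was 8.96 to 8.98 with BCNU, 9.19 to 9.24 with auranofin and 9.38 to 9.41 in controls. Adipocyte markers lay at 11.6 in BCNU arrays and 11.7 in controls. Group means of all 17 lay above the floor of 2.30 taken as background, though Cd34 read 2.18 in its lowest array of the series. Their part in the mitotic result was not tested.

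By 24 h of BCNU both classes stood above the 24 h controls. All 18 replication members had a positive change, with a median of 0.39, as had 23 of 24 mitotic members, with a median of 0.43. limma called 1 replication member and 1 mitotic member higher and 0 of either lower, beside 0.121% and 0.0697% of all genes. In 19 of 24 mitotic and 14 of 18 replication members both BCNU arrays exceeded both controls, beside 18.6% of all genes. Kif11 read 4.67 and 5.27 in controls and 5.98 and 5.87 with BCNU (0.95 ± 0.16, 1.94-fold, adjusted p 0.0143). Mcm5, a helicase subunit, read 4.06 and 4.45 in controls and 5.60 and 5.38 with BCNU (1.23 ± 0.24, adjusted p 0.0385). Mki67 read 5.74 and 5.73 against 6.75 and 6.66, with a change of 0.98 that was not called. Leaving out any of the 4 arrays ended the Mcm5 call (adjusted p 0.1 to 0.233), and leaving out any but control replicate 2 ended that of Kif11 (0.0826 to 0.133).

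The rebound was tested as the BCNU effect at 24 h minus that at 8 h. It was called positive for 3 of 24 mitotic members and 0 of 18 replication members (9 at an unadjusted p under 0.05), and negative for 0, beside 0.214% and 0.274% of all genes. Mitotic members had a median of 0.88, with 23 positive and 18 at an unadjusted p under 0.05, and replication members a median of 0.58, with 17 positive. Mki67 swung by 2.23 ± 0.33 (4.70-fold, adjusted p 0.0025), from below its controls to above them. Kif11 swung by 1.56 ± 0.23 (2.94-fold, adjusted p 0.00189), and both kept the call when any of the 8 arrays was left out. Ccna2 went from 5.73 and 6.13 at 8 h to 6.60 and 6.85 at 24 h, while its controls went from 6.92 and 6.42 to 6.05 and 6.09, a difference of 1.40 ± 0.26 (adjusted p 0.0155). That call was lost without control 8 h replicate 1, BCNU 8 h replicate 1, either 24 h control or BCNU 24 h replicate 2 (adjusted p 0.0521 to 0.0912).

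Since the 24 h controls read lower than the 8 h controls for many of these genes, the BCNU groups were also set directly against each other, a comparison added after the values were seen. From 8 to 24 h of BCNU, 24 of 24 mitotic members had a positive difference, with a median of 0.60, and 9 were called: Mki67 (1.44), Ube2c (1.22), Kif11 (1.17), Top2a (1.10), which encodes the topoisomerase that untangles chromosomes, Cdk1, Ccna2, Plk1, Cenpe and Tpx2. Among replication members 16 of 18 were positive (median 0.40) and Rrm2, Ccne1 and Uhrf1 were called. In that comparison 1.13% of all genes were called higher and 1.14% lower. Set against the mean of all 4 groups without drugs, the 24 h excess was smaller in the mitotic class, with a median of 0.21 in place of 0.43, and similar in the replication class at 0.37. Kif11 was then higher by 0.57, Mcm5 by 1.13 and Uhrf1 by 0.66, and these 3 were called, beside 0.219% of all genes higher and 0.209% lower. The mean level of the preadipocyte and fibroblast markers was 8.98 to 9.06 at 24 h of BCNU, beside 8.96 to 8.98 at 8 h, and their part in the rebound was not tested.

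**Figure D3:**
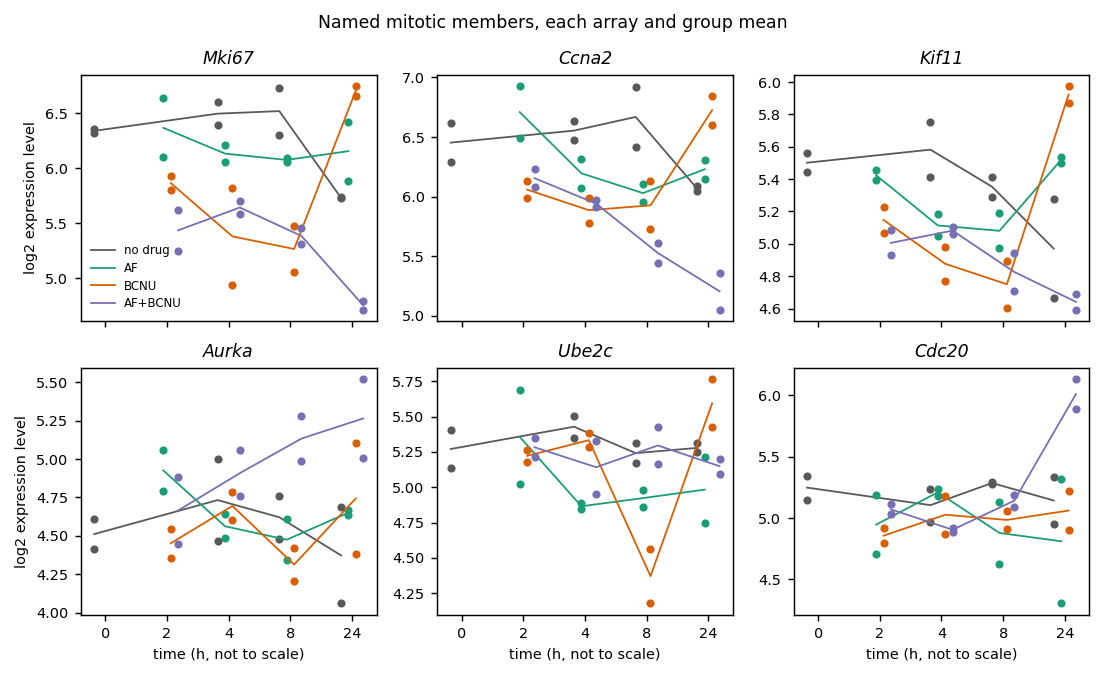
Log2 expression level of 6 mitotic members by time in h (not to scale), with a point for each array and lines through the group means for no drug, auranofin, BCNU and co-treatment. The BCNU line of Mki67 dips to 5.05 and 5.48 at 8 h and reaches 6.75 and 6.66 at 24 h, while the co-treatment line ends at 4.71 and 4.79.

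With auranofin alone limma called no mitotic member at any time, and 4 replication genes rose at 24 h. Mitotic medians were -0.28 at 8 h and 0.16 at 24 h, with 4 members at an unadjusted p under 0.05 at each of these times. At 24 h 17 of 18 replication members had a positive change, with a median of 0.38. limma called 4 of 18 higher and 0 lower, beside 0.921% and 0.358% of all genes. All of these act in loading or running the helicase. Mcm5 read 5.42 and 5.71 with auranofin (1.31 ± 0.24, 2.48-fold, adjusted p 0.00491), above its controls given earlier. Mcm6 read 5.34 and 5.77 in controls and 6.41 and 6.79 with auranofin (1.04 ± 0.19, adjusted p 0.00379). Mcm2 read 6.01 and 6.36 in controls and 6.976 and 6.997 with auranofin (0.80 ± 0.14, adjusted p 0.00318). Cdc6, the loading factor, read 3.12 and 3.22 in controls and 4.46 and 3.89 with auranofin (1.00 ± 0.23, adjusted p 0.0235). In none of these genes did the groups overlap.

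Leaving out control 24 h replicate 1 ended all 4 auranofin calls (adjusted p 0.0854 to 0.153), and Cdc6 was also lost without control replicate 2 (0.105) or auranofin replicate 1 (0.382). Without auranofin replicate 2, Mcm5 and Mcm6 were lost as well (0.0676 and 0.0723). At 2, 4 and 8 h of auranofin limma called 0 members of either class (0, 4 and 3 replication members at an unadjusted p under 0.05), where 0.0697%, 0.242% and 0.916% of all genes were called higher and 0%, 0.0418% and 0.516% lower. The auranofin effect at 24 h minus that at 8 h was called for 0 members (6 of each class at an unadjusted p under 0.05, and 0.0279% of genes positive and 0.00465% negative), with medians of 0.32 for replication and 0.42 for mitosis. With the auranofin groups at 24 and 8 h set directly against each other, 3 replication members were called higher, Mcm5 (1.26), Mcm6 (0.88) and Mcm4 (0.51), and 0 mitotic members (median 0.14, 18 of 24 positive), beside 0.2% of all genes higher and 0.144% lower. Whether the BCNU rebound exceeded the auranofin change was tested directly: limma called 0 members (4 replication and 7 mitotic at an unadjusted p under 0.05), beside 0.093% and 0.191% of all genes, although 23 of 24 mitotic differences were positive with a median of 0.44. For Mki67 that difference was 1.36 ± 0.33 (adjusted p 0.111). A rebound particular to BCNU was thus not shown against auranofin.

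Co-treatment raised a set of replication genes from 4 h on. limma called 4 of 18 higher at 4 h, 6 at 8 h and 6 at 24 h, and 0 lower at each time, where 2.53%, 5.72% and 4.88% of all genes were called higher and 3.31%, 5.58% and 4.25% lower. The class median was 0.09 at 8 h and 0.30 at 24 h, so the rest of the class lay nearer to control than the called genes. The 3 treatments share their control arrays, so the comparisons are not independent of one another.

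Among helicase genes, Mcm5 read 3.97 and 4.60 in 8 h controls and 5.58 and 5.62 with both drugs, and 6.08 and 5.89 at 24 h. Its change was 1.40 ± 0.24 at 4 h, 1.31 ± 0.24 at 8 h and 1.73 ± 0.24 at 24 h (3.32-fold, adjusted p 4.05e-05). Mcm7, another helicase subunit, read 6.91 and 6.93 in 8 h controls and 7.66 and 7.70 with both drugs (0.76 ± 0.10, adjusted p 1.19e-05). Mcm10, which helps the helicase to fire, read 4.59 and 4.61 in 8 h controls and 5.49 and 6.07 with both drugs. Its change was 1.18 ± 0.18 at 8 h (adjusted p 0.00011) and 1.14 ± 0.18 at 24 h (adjusted p 0.000188). The other helicase subunits did not move alike: Mcm2, Mcm3, Mcm4 and Mcm6 had changes of 0.08, -0.26, -0.41 and -0.33 at 8 h, and none was called.

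Pcna gave the smallest adjusted p of any member against control, 1.6e-06 at 24 h. It read 7.77 and 7.66 in 8 h controls and 8.52 and 8.63 with both drugs (0.86 ± 0.09, adjusted p 2.12e-06). At 24 h it read 7.61 and 7.68 in controls and 8.51 and 8.503 with both drugs. Chek1 read 4.21 and 4.66 in 8 h controls and 5.69 and 5.45 with both drugs (1.14 ± 0.24, adjusted p 0.00206), and was higher by 1.35 ± 0.24 at 24 h (adjusted p 0.00052). Of the loading factors, Cdt1 was called at 8 and 24 h and Cdc6 at 24 h. Cdc6 reached 4.16 and 4.25 at 24 h (1.03 ± 0.23, adjusted p 0.00334), and Cdt1 went from 5.03 and 5.12 in controls to 5.83 and 5.82 at 8 h (0.75 ± 0.20, adjusted p 0.0123). At 4 h the calls of Mcm5 and Chek1 held when any 1 array of the contrast was left out, while those of Mcm7 (on its size) and Mcm10 (adjusted p 0.0509 and 0.0563) were lost without control replicate 2 or co-treatment replicate 1. Calls of Mcm5, Mcm7, Mcm10, Pcna and Chek1 at 8 h, and of Mcm5, Mcm10, Cdc6, Pcna and Chek1 at 24 h, held in every such fit. Cdt1 at 8 h did not hold without any of the 4 (adjusted p 0.0502 to 0.0832), nor at 24 h without control replicate 1 (0.101) or co-treatment replicate 1 (0.0577).

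**Figure D4:**
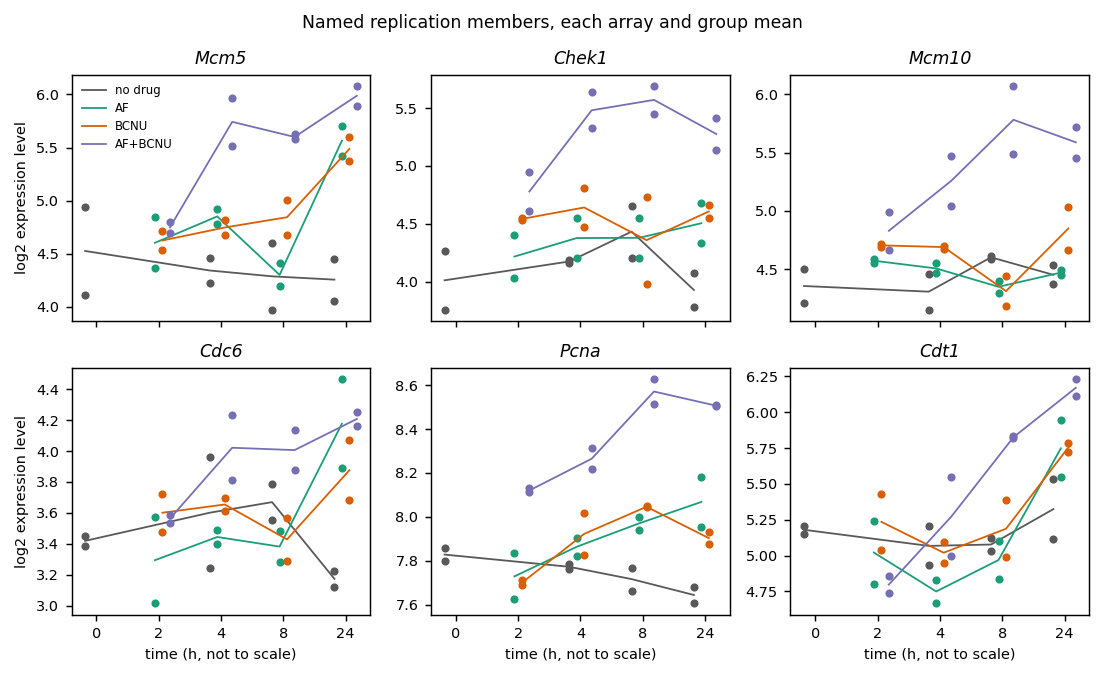
Log2 expression level of 6 replication members by time in h (not to scale), with a point for each array and lines through the group means for no drug, auranofin, BCNU and co-treatment. Co-treatment arrays of Pcna sit at 8.503 to 8.63 at 8 and 24 h, above the controls at 7.61 to 7.77, and all 3 treatments of Mcm5 end above the controls at 24 h.

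Mitotic calls under co-treatment were all lower up to 8 h and few in either direction at 24 h. At 8 h 5 of 24 were called lower and 0 higher, beside 5.58% and 5.72% of all genes. At 24 h 2 were called lower and 2 higher, small counts near the shares of all genes, 4.25% and 4.88%. The medians were -0.20 and -0.003. Against the mean of the groups without drugs, 6 were called lower and 2 higher at 24 h, with a median of -0.17, beside 4.71% of all genes lower and 5.36% higher. Mki67 stayed low throughout, at 5.31 and 5.45 at 8 h (-1.14 ± 0.23, adjusted p 0.00177) and 4.71 and 4.79 at 24 h (-0.98 ± 0.23, adjusted p 0.00678). Ccna2 read 5.44 and 5.61 at 8 h (-1.14 ± 0.18, adjusted p 0.000148) and 5.36 and 5.05 at 24 h (-0.86 ± 0.18, adjusted p 0.00255). Plk1, Kif11 and Kif23, a motor of cell division, were called lower at 8 h by 0.53 to 0.74. Those 3 calls were lost in 3 or 4 of the 4 fits without 1 array (adjusted p up to 0.294), whereas Mki67 and Ccna2 kept theirs at 8 h. At 24 h the Mki67 call was lost without co-treatment replicate 1 (0.0556).

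The members called higher at 24 h were Aurka and Cdc20. Aurka, the Aurora A kinase of spindle poles, read 4.69 and 4.06 in controls and 5.52 and 5.01 with both drugs (0.89 ± 0.25, adjusted p 0.0186). Cdc20, the activator of the anaphase-promoting complex, read 5.33 and 4.95 in controls and 6.13 and 5.89 with both drugs (0.87 ± 0.24, adjusted p 0.0182). Neither call held without control replicate 2 (0.275 and 0.194) or co-treatment replicate 1 (0.232 and 0.15). At 4 h Mki67, Ccna2 and Cenpf, a kinetochore protein, were called lower by 0.61 to 0.85. At 2 h Mki67 was the sole called member, at 5.62 and 5.24 against 6.32 and 6.36 at 0 h (-0.91 ± 0.23, adjusted p 0.0484), beside 0.632% of genes higher and 0.86% lower. All of these early mitotic calls were lost in 3 or 4 of the 4 fits without 1 array (up to 0.295). Preadipocyte and fibroblast markers were again lower: 8 of 17 were called lower at 8 h (median -0.64) and 15 at 24 h (median -2.40). The shares of all genes called lower were 5.58% and 4.25%. The mean marker level at 24 h was 6.998 to 7.11 against 9.28 to 9.32 in controls, while the median mitotic change was -0.003. The part of these markers in the mitotic result was not tested.

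The rebound was a point of difference between BCNU and co-treatment. The effect at 24 h minus that at 8 h under co-treatment was called for 0 mitotic members (6 at an unadjusted p under 0.05, median 0.28, or -0.069 with the co-treated groups set directly against each other) and for 1 replication member, Mcm4, a helicase subunit (0.75 ± 0.15, adjusted p 0.00716), beside 1.37% of genes positive and 1.34% negative. The BCNU rebound minus that of co-treatment was positive for 23 of 24 mitotic members, with a median of 0.66, and 6 were called, with 0 of 18 replication members (6 of these at an unadjusted p under 0.05), beside 2.88% of all genes called positive and 2.78% negative. They were Mki67 (2.07 ± 0.33, adjusted p 0.000511), Ube2c (1.37 ± 0.28, adjusted p 0.004), Kif11 (1.36 ± 0.23, adjusted p 0.000729), Cenpe (1.25 ± 0.23, adjusted p 0.00171), Ccna2 (1.12 ± 0.26, adjusted p 0.0113) and Ttk (1.05 ± 0.29, adjusted p 0.0342). Cenpe is the motor that carries chromosomes to the spindle middle and Ttk the kinase of the spindle checkpoint. Mki67, Ube2c, Kif11 and Cenpe kept the call when any of the 8 arrays was left out. Ccna2 lost it without BCNU 8 h replicate 1, BCNU 24 h replicate 2 or co-treatment 24 h replicate 2 (adjusted p up to 0.0672), and Ttk in 5 of the 8 fits (up to 0.155). The preadipocyte and fibroblast markers differed in the same contrast, with 15 of 17 called positive and a median of 1.81.

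Set directly against BCNU at 24 h, co-treated cells had 8 mitotic members called lower and 1 higher, beside 3.91% and 4.38% of all genes. Mki67 differed by -1.95 ± 0.23 (adjusted p 6.34e-06), Ccna2 by -1.52 ± 0.18 (adjusted p 6.16e-06) and Kif11 by -1.28 ± 0.16 (adjusted p 9.99e-06), each with co-treated arrays below both BCNU arrays. Top2a, Plk1, Cenpe, Cenpf and Ttk were lower by 0.61 to 0.76, and Cdc20 was higher by 0.95 ± 0.24 (adjusted p 0.011). Of the 18 replication members, Mcm10 (0.74) and Pcna (0.60) were called higher and Uhrf1 (-0.63) lower, beside 4.38% and 3.91% of all genes. The calls of Mki67, Ccna2, Kif11 and Pcna held without any 1 of the 4 arrays, and the other 8 were lost in 2 to 4 of the 4 fits (adjusted p up to 0.316).

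The interaction asks whether co-treatment departed from the effects of auranofin and BCNU added together as log2 changes. At 8 h it was called positive for 4 replication and 3 mitotic members and negative for 0, beside 3.49% and 3.98% of all genes. Mcm10 led with 1.72 ± 0.26 (adjusted p 0.000303), since its 8 h changes were -0.25 with auranofin, -0.29 with BCNU and 1.18 with both. Chek1 followed at 1.27 ± 0.34 (adjusted p 0.0248), and Mcm7 and Ccne1 had 0.68 each. Among mitotic members Ccnb2, a cyclin B (1.47 ± 0.34, adjusted p 0.00904), Ube2c (1.24 ± 0.28, adjusted p 0.00743) and Tpx2 (0.81 ± 0.23, adjusted p 0.0336) had lower values with each single drug than with both. Mcm7, Mcm10, Ccnb2 and Ube2c were called without any 1 of the 8 arrays, while Ccne1, Chek1 and Tpx2 were lost in 4 to 6 of the 8 fits (adjusted p up to 0.135), each without BCNU replicate 1 or auranofin replicate 1 among others.

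At 24 h the interaction was mostly negative. It was called negative for 2 replication and 4 mitotic members and positive for 1, beside 2.01% and 1.75% of all genes, and the mitotic median was -0.71. Mki67 had -2.38 ± 0.33 (adjusted p 0.000111), Kif11 -1.83 ± 0.23 (adjusted p 2.42e-05), Ccna2 -1.68 ± 0.26 (adjusted p 0.000297) and Top2a -1.35 ± 0.31 (adjusted p 0.0143). For Mki67 the 24 h changes were 0.42 with auranofin, 0.98 with BCNU and -0.98 with both, and for Kif11 they were 0.55, 0.95 and -0.33. Mcm6 (-1.38 ± 0.27, adjusted p 0.003) and Mcm2 (-1.15 ± 0.20, adjusted p 0.00112) were the replication members called negative. Mcm3, Mcm5 and Mcm4 had values of -0.86, -0.81 and -0.49 that were not called. Cdc20 had 1.28 ± 0.34 (adjusted p 0.0365). Top2a and Cdc20 were each lost in 4 of the 8 fits without 1 array, among them those without control, BCNU or co-treatment replicate 1 (adjusted p up to 0.0944 and 0.191), and the other 5 were called in all 8.

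**Figure D5:**
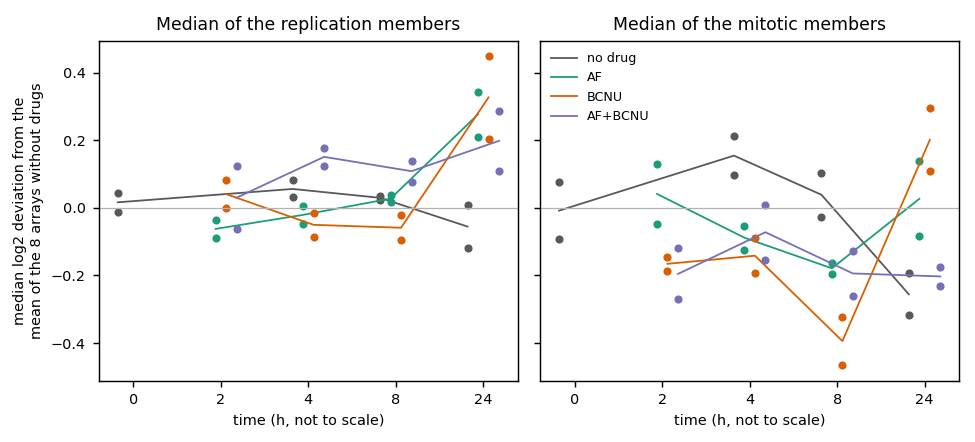
Median over the replication members (left) and mitotic members (right) of each array's log2 deviation from the mean of the 8 arrays without drugs, by time in h (not to scale), with a point for each array and lines through group means. With BCNU the mitotic median is -0.47 and -0.32 at 8 h and 0.11 and 0.29 at 24 h. With co-treatment it is -0.23 and -0.18 at 24 h, beside -0.32 and -0.19 in the 24 h controls.

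Of the members, 10 of 18 replication and 10 of 24 mitotic genes were called in at least 1 of the 12 treatment contrasts, beside 19.4% of all genes. The replication genes called in none were Mcm3, Mcm4, Gins1, Gins2, Rrm1, Rrm2, Tyms and Uhrf1, whose changes ran from -0.58 (Rrm2, BCNU at 8 h) to 0.76 (Mcm3, auranofin at 24 h). The nucleotide suppliers Rrm1, Rrm2 and Tyms and the GINS subunits are thus all in that group. Mitotic genes called in none were Top2a, Cdk1, Ccnb2, Bub1, Bub1b, Aurkb, Kif20a, Cenpe, Cenpa, Ttk, Nuf2, Ndc80, Prc1 and Birc5, with changes from -1.53 (Ndc80, BCNU at 8 h) to 0.89 (Birc5, BCNU at 24 h).

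Mcm5 lies beside Hmox1, heme oxygenase, a strongly stress-induced gene that is its nearest upstream neighbour in the RefSeq annotation and was looked at after the values of Mcm5 were seen. Hmox1 was highest with auranofin at 8 h (13.16 and 13.17, against 10.43 and 9.95 in controls), where Mcm5 read 4.41 and 4.19 and had a change of 0.01. With BCNU at 24 h Mcm5 was called higher while Hmox1 read 10.74 and 10.47 against 10.25 and 10.26 (0.35 ± 0.16, adjusted p 0.625). In some groups both were higher: with auranofin at 24 h Hmox1 changed by 2.47 and Mcm5 by 1.31. With both drugs at 4, 8 and 24 h Hmox1 changed by 2.29, 2.74 and 2.48 and Mcm5 by 1.40, 1.31 and 1.73. In the remaining drug groups Hmox1 was high while Mcm5 was not called. Hmox1 means there were 12.74 and 12.96 with auranofin at 2 and 4 h, and 12.57 with both drugs at 2 h. They were 11.80, 12.83 and 12.79 with BCNU at 2, 4 and 8 h. Without drugs its group means ran from 10.19 to 10.64. A link between the 2 genes was not tested.

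Other genes of the same processes came from wider lists of the pathway. Of 42 further replication genes, co-treatment raised Dbf4, the activator of the CDC7 kinase, Gmnn, the inhibitor of CDT1, Slbp and Chaf1b at 8 h, and lowered Tk1, beside 5.72% of all genes higher and 5.58% lower. Auranofin at 24 h raised Prim1, Rpa1, Chaf1b and Hells, beside 0.921% of all genes, and BCNU lowered Pole at 8 h, beside 1.38%. These names need not be all the called genes of that list. Of 59 further mitotic genes, BCNU lowered Cdc25b (-0.87) and Ect2 (-0.61) at 4 h, beside 0.4% of all genes, and 0 at 8 h (12 at an unadjusted p under 0.05), where the median was -0.20, and raised Ncaph, a condensin subunit, at 24 h (0.84, adjusted p 0.0385), where 0.121% of all genes were called higher and 52 of 59 had a positive change (median 0.29). Their rebound was called for 0 of 59 (24 at an unadjusted p under 0.05), with 52 positive and a median of 0.52. Co-treatment raised 4 and lowered 4 of them at 8 h, near the shares of all genes, 5.72% and 5.58%. At 24 h it raised 5 and lowered 0, beside 4.88% and 4.25% of all genes: Cks2 (1.52 ± 0.30, adjusted p 0.00143), Nusap1 (1.497 ± 0.26, adjusted p 0.000377), Ska3 (1.43 ± 0.29, adjusted p 0.0015), Cdca5 (1.18 ± 0.27, adjusted p 0.00518) and Cenpi (0.56). Nusap1 and Ska3 act on spindle microtubules and Cks2 on CDK1.

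Of 22 E2F, RB and FOXM1 regulators limma called 0 with BCNU at 4, 8 or 24 h, with 1, 4 and 5 at an unadjusted p under 0.05. With BCNU at most 0.879% of all genes were called higher and at most 1.38% lower at any time, and 0 of 22 is near that background. Foxm1, the activator of mitotic genes, read 5.15 and 5.12 in 24 h controls and 5.79 and 6.002 with BCNU, a change of 0.76 ± 0.19 that was not called (adjusted p 0.173). E2f1 had a change of 0.32 there and was called in no treatment contrast. Co-treatment raised Rb1, the retinoblastoma repressor of E2F factors, by 1.10 at 4 h and 0.99 at 8 h, beside 2.53% and 5.72% of all genes. The number of the 22 called with both drugs is not given here. Ccnd1, cyclin D1, the G1 cyclin that answers growth signals, read 6.72 and 6.96 in 24 h controls. It read 7.47 and 7.92 with auranofin (0.85 ± 0.21, adjusted p 0.0381) and 5.28 and 6.01 with both drugs (-1.19 ± 0.21, adjusted p 0.00038). With BCNU Ccnd1 read 7.30 and 7.63 at 24 h. At 8 h it read 6.61 and 6.64 with BCNU, against 6.96 and 6.95 in controls.

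Of 16 p53 targets of cell cycle arrest, Plk3 (3.10), Btg2 (2.43), Sesn2 (1.99) and Plk2 (1.19) were called higher at 8 h of both drugs, beside 5.72% of all genes. How many of the 16 were called with both drugs is not given here. With BCNU Plk3 alone was called higher, by 1.30 at 4 h and 0.93 at 8 h, beside 0.391% and 0.879% of all genes. The difference between the treatments is not described here for this list. Of 7 cyclin-dependent kinase inhibitors, Cdkn2c, which encodes p18, was called lower with co-treatment at 4, 8 and 24 h (-0.62, -0.99 and -0.94). At these times 3.31%, 5.58% and 4.25% of all genes were called lower, and the number called of the 7 is not given here. Cdkn1a, which encodes p21, was not analysed here. Fitted on the arrays of each contrast alone, without the spread of the other groups, limma ended every count of called members with auranofin or BCNU and in the 24 h minus 8 h effects. With both drugs that fit left 3 replication members higher and 1 mitotic member lower at 8 h, and 5 and 1 at 24 h.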

How the data were processed

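RNA of 3T3-L1 adipocytes was read on Affymetrix Mouse Gene 2.1 ST arrays, 32 in 16 groups of 2. The deposited values are log2 levels that the authors made by RMA, which corrects for background, makes the arrays' distributions alike and summarises the probes of a transcript cluster, so an array holds no read depth and the number of arrays limits precision. Symbols came from the platform annotation. Of 25293 probe sets 22030 had 1 symbol, 685 had several and 2578 had none, and only the first were used. Several probe sets of a gene were collapsed by their median.

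limma 3.58.1 in R 4.3.3 fitted 1 mean per group to the 32 arrays together, which left 16 degrees of freedom for the residual. The test was two-sided, with Benjamini-Hochberg adjustment over 21506 genes within each contrast. It was tested on simulated data. The members, lists and tests were chosen with earlier results of these data known. Values per array are given for the 6 called members of each class with the largest change under BCNU at 4 to 24 h or co-treatment at 8 and 24 h (Mcm5, Chek1, Mcm10, Cdc6, Pcna, Cdt1, Mki67, Ccna2, Kif11, Aurka, Ube2c and Cdc20), others where a call or contrast turned on them, and E2f1, Foxm1 and Ccnd1 whatever their values. From each other list at most 4 called genes in a contrast were to be named, a limit that was not kept throughout. Replicate numbers did not pair samples: over 120 pairs of groups, deviations of same-numbered arrays correlated between -0.06 and 0.08. Promoters came from RefSeq, assembly GRCm38.p6.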

Additional observations from a re-analysis of the deposited data

Results flagged for a closer look

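These values are differences between effects that passed a test of the difference itself, and no explanation was weighed. The BCNU effect was more positive at 24 h than at 8 h for Mki67 (2.23), Kif11 (1.56) and Ccna2 (1.40), and the co-treatment effect for Mcm4 (0.75). That change over time was larger with BCNU than with both drugs for Mki67 (2.07), Ube2c (1.37), Kif11 (1.36), Cenpe (1.25), Ccna2 (1.12) and Ttk (1.05).

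At 8 h co-treatment exceeded the added effects of its drugs for Mcm10 (1.72), Ccnb2 (1.47), Chek1 (1.27), Ube2c (1.24), Tpx2 (0.81), Mcm7 (0.68) and Ccne1 (0.68). At 24 h it exceeded them for Cdc20 (1.28) and fell short of them for Mki67 (-2.38), Kif11 (-1.83), Ccna2 (-1.68), Mcm6 (-1.38), Top2a (-1.35) and Mcm2 (-1.15). All are log2 values from limma with 2 arrays a group.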

How the results depend on the processing

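With 2 arrays a group, the number of arrays limits every call. With the replicate number as a block, all 80 single calls kept their direction and threshold (the replicate block gave mitotic counts of 7 for BCNU at 8 h and 4 for the rebound, against 6 and 3), and it moved no count by over 1.5 times. Fitted on the arrays of a contrast alone, limma called 0 replication members for auranofin at 24 h, BCNU at 8 and 24 h, both drugs at 4 h and the co-treatment effect at 24 h minus 8 h (main counts 4, 1, 1, 4 and 1). It called 0 mitotic members for BCNU at 4, 8 and 24 h and in its rebound, and for both drugs at 2 and 4 h and, higher, at 24 h. It called 3 replication members and 1 mitotic member for both drugs at 8 h and 1 mitotic member lower at 24 h. In the interactions it called 1 replication member at 8 h and, at 24 h, 1 replication member and, higher, 0 mitotic members. It called 2 mitotic members in the difference of rebounds and, for both drugs against BCNU at 24 h, 0 replication members either way and 0 mitotic members higher and 3 lower. With a trended and robust prior, the mitotic count was 2 for BCNU at 24 h and 7 for the rebound. With dim genes left out the rebound count was 5. With arrays centred on their medians, or cyclic loess, the mitotic count for both drugs at 2 h was 0, and with the 4 h control it was 2.

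The mean of the 4 groups without drugs as control, and the repeats of the interactions, the difference of rebounds and both drugs against BCNU, were chosen after seeing the data. Counts with that mean were 2 replication members for BCNU at 24 h, 1 mitotic member lower for both drugs at 4 h and 6 at 24 h, and 9 mitotic members in the BCNU rebound. Mitotic medians with it were -0.23 and 0.0067 for auranofin at 8 and 24 h, -0.18, -0.43 and 0.21 for BCNU at 4, 8 and 24 h, and -0.17 for both drugs at 24 h. Mitotic medians of the 24 h minus 8 h effects were 0.14, 0.60 and -0.069 for auranofin, BCNU and both, and replication medians were 0.19, 0.40 and 0.073. Replication medians were -0.12 and -0.039 for BCNU at 4 and 8 h, and 0.033 and 0.17 for both drugs at 8 and 24 h. Centring gave replication medians of -0.053 and -0.049 for BCNU at 4 and 8 h and 0.021 for both drugs at 8 h, and a mitotic median of -0.033 for both drugs at 24 h. Cyclic loess gave replication medians of -0.044 for BCNU at 8 h and 0.13 for both drugs at 8 h, and a mitotic rebound median of 0.83.

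Leaving out each array of a contrast in turn gave these ranges. Replication counts were 0 to 3 for auranofin at 24 h, 0 to 2 for BCNU at 8 h, 0 to 0 for BCNU at 24 h, 2 to 5, 5 to 5 and 5 to 7 for both drugs at 4, 8 and 24 h, and 1 to 1 for the late change of co-treatment. Mitotic counts were 0 to 1, 0 to 6 and 0 to 1 for BCNU at 4, 8 and 24 h, 2 to 3 for its rebound, and 0 to 0, 0 to 3 and 2 to 3 lower for both drugs at 2, 4 and 8 h, with 1 to 3 lower and 0 to 2 higher at 24 h. Interaction counts were 2 to 4 (replication) and 2 to 3 (mitotic) at 8 h, and 2 to 3 (replication), 3 to 5 (mitotic, lower) and 0 to 1 (mitotic, higher) at 24 h. The difference of rebounds had 4 to 6 mitotic members, and both drugs against BCNU at 24 h had 1 to 2 replication members higher and 0 to 2 lower, and 0 to 1 mitotic members higher and 3 to 6 lower. Replication medians ran from -0.12 to 0.042 and from 0.27 to 0.43 for auranofin at 8 and 24 h, and from -0.15 to 0.049, -0.13 to -0.030 and 0.25 to 0.51 for BCNU at 4, 8 and 24 h. They ran from 0.050 to 0.17 and from 0.25 to 0.42 for both drugs at 8 and 24 h, and from 0.27 to 0.41, 0.45 to 0.62 and 0.082 to 0.29 in the late changes of auranofin, BCNU and both. Mitotic medians ran from -0.36 to -0.22 and from 0.099 to 0.26 for auranofin at 8 and 24 h, and from -0.46 to -0.33, -0.59 to -0.41 and 0.31 to 0.59 for BCNU at 4, 8 and 24 h. They ran from -0.36 to -0.15 and from -0.041 to 0.060 for both drugs at 8 and 24 h, and from 0.33 to 0.54, 0.78 to 1.002 and 0.14 to 0.38 in the late changes. The medians that changed sign here were those of replication for auranofin at 8 h and BCNU at 4 h and of mitosis for both drugs at 24 h, all near 0, and the sign of the late mitotic change of co-treatment turned with the mean of the drug-free groups. The cause was not tested.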
